A study of Homo sapiens with 8 samples.

Results

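The genes described here encode the nuclear part of the mitochondrial respiratory chain and ATP synthase in SUM159 cells, a line derived from a human triple-negative breast tumour that has mesenchymal features. They were chosen by symbol alone. A protein-coding gene was a member when its symbol began with NDUFA, NDUFB, NDUFC, NDUFS, NDUFV, UQCR or ATP5, or with COX followed by 4 to 8, or when it was SDHA, SDHB, SDHC, SDHD or CYC1. This rule took 100 genes of the 19863 protein-coding genes and 58336 genes in the table. They fall into 40 complex I subunits, 8 complex I assembly factors, 4 complex II subunits, 10 complex III genes, 17 complex IV genes and 21 ATP synthase genes.

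The libraries form 3 groups. The 3 lung-recovered libraries came from clone 1 of ITGB4-low SUM159 cells that had been injected into the tail vein of mice. Bleomycin, which damages lung tissue and provokes inflammation, was delivered to those mice by the trachea. Their lungs were dissociated, the suspension was kept in a dish overnight, and cells positive for tdTomato, a red fluorescent protein, were sorted the next day. The 3 ITGB4-low libraries came from the same clone 1 grown in dishes, and the 2 ITGB4-high libraries from ITGB4-high cells grown in dishes. ITGB4 is the beta subunit of a laminin-binding integrin of epithelial cells. The labels call the libraries of a group biological replicates and name no cultures or animals, so each p-value measures the spread between these libraries, which may be partly technical. Since the ITGB4-low state is represented by 1 clone, traits of that clone and of the state cannot be told apart. Lung passage, bleomycin, the overnight dish and the sort likewise cannot be told apart in the lung-recovered libraries.

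The respiratory chain lies in the inner mitochondrial membrane. Complex I and complex II pass electrons from NADH and from succinate to coenzyme Q, complex III passes them to cytochrome c, and complex IV to oxygen. Complexes I, III and IV pump protons as they do so, and ATP synthase uses the return flow of protons to make ATP. Complex II, which is also the succinate dehydrogenase of the TCA cycle, is wholly nuclear-encoded. In the other complexes, mitochondrial DNA encodes some of the central subunits, so both genomes have to supply parts of the same machine.

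Each library held between 20.41 and 27.22 M counts, and 15220 genes had enough counts to be tested. ITGB4 itself had 401, 376 and 407 CPM (counts scaled to library size with TMM factors) in lung-recovered libraries, 5.29, 7.46 and 9.13 CPM in ITGB4-low libraries, and 420 and 376 CPM in ITGB4-high libraries. The dish-grown libraries thus fitted their labels, and the lung-recovered libraries, made from the ITGB4-low clone, lay within the range of the ITGB4-high ones. VIM, FN1, CD44 and the other markers of a mesenchymal breast line summed to 7857 to 8428 CPM in lung-recovered, 10880 to 11053 CPM in ITGB4-low and 7156 to 7576 CPM in ITGB4-high libraries, with all 5 detected in each group. Lymphocyte markers (8 genes) summed to at most 0.126 CPM in any lung-recovered library, and erythroid markers (5 genes) were at 0 there. Macrophage and myeloid markers (9 of 11 with a count) summed to 8.09 to 9.06 CPM in lung-recovered, 6.44 to 6.85 CPM in ITGB4-low and 3.78 to 4.98 CPM in ITGB4-high libraries, with LYZ and TYROBP at 0 in the lung-recovered ones. Lung epithelial markers (5 of 9 with a count) summed to 0.709 to 1.22 CPM in lung-recovered libraries, with SFTPA1, SCGB1A1, HOPX and FOXJ1 at 0, against 1.6 to 2.05 CPM in ITGB4-low and 0.717 to 1.17 CPM in ITGB4-high libraries. Endothelial markers (5 of 7 with a count, CLDN5 and VWF at 0) summed to 2.78 to 3.4 CPM in lung-recovered, 3.59 to 5.63 CPM in ITGB4-low and 3.23 to 3.96 CPM in ITGB4-high libraries. Lung fibroblast and smooth muscle markers (8 of 8 with a count) summed to 53.3 to 56.7 CPM in lung-recovered, 27 to 30 CPM in ITGB4-low and 29.5 to 35.5 CPM in ITGB4-high libraries. PDGFRA alone averaged 36.5, 3.51 and 9.37 CPM in the same order of groups, so the higher sum came mainly from this gene. COL13A1 averaged 3.28, 8.45 and 0.248 CPM, and DCN 2.65, 2.32 and 5.86 CPM. ACTA2 averaged 12.9 CPM in lung-recovered and 16.8 CPM in ITGB4-high libraries. Host cells of the lung would be mouse cells, whereas the counts are of human genes on build hg38. These sums therefore cannot say how many host cells the lung-recovered libraries held. The part of these markers' cell types in the results on the lung-recovered libraries was not tested.

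Of the 100 members, 91 were tested and 9 were not. The untested ones never exceeded 9 counts in a library. COX4I2, COX6A2 and COX7A1, isoforms best known from lung or from heart and skeletal muscle, had 0 counts in all 8 libraries, which allows at most 0.113 to 0.146 CPM per library (3 counts, counting error only). COX6B2, the testis isoform of the COX6B subunit, had 2 to 9 counts per library. COX7B2, COX8C, ATP5MGL and the read-through genes NDUFC2-KCTD14 and ATP5MF-PTCD1 had 1, 6, 11, 3 and 6 counts over all libraries. For each of these tissue-restricted COX subunits the widely expressed partner was present, namely COX4I1 at 295 CPM on average, COX6A1 at 81.8 CPM, COX6B1 at 65.5 CPM and COX7A2 at 64 CPM. The NDUFA4 pair followed the same order, with NDUFA4 at 76.6 and the hypoxia-associated NDUFA4L2 at 2.64 CPM per kilobase of principal transcript.

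Set side by side per kilobase of principal transcript, a scale that depends on which transcripts are taken as principal, the catalytic beta subunit of ATP synthase, ATP5F1B, had the highest level (515 CPM per kb). COX4I1 (412 CPM per kb), the subunit through which complex IV is regulated by nucleotides, and COX8A (395 CPM per kb), its smallest subunit, came next. The median over tested genes was 141 CPM per kb for complex IV, 107 CPM per kb for ATP synthase, 74.7 CPM per kb for complex III, 49.1 CPM per kb for complex II and 48.3 CPM per kb for complex I subunits. Complex I assembly factors, which help to build the complex and do not stay in it, had a median of 11.8 CPM per kb. A core subunit stood far below its partner on this scale. NDUFV2, an iron-sulphur subunit that forms the NADH-oxidising tip of complex I together with NDUFV1, was at 3.71 CPM per kb, against 71.3 CPM per kb for NDUFV1. In the annotation NDUFV2 shares 28.4% of its exonic bases on the same strand with AP005263.1, which had 0 counts, and the counting program's rule for such reads is not given in the sources used here, so the level of NDUFV2 is uncertain.

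Summed over all members, the respiratory chain took 0.822, 0.837 and 0.823% of the counts in lung-recovered libraries, 0.752, 0.775 and 0.762% in ITGB4-low libraries, and 0.846 and 0.836% in ITGB4-high libraries. Every ITGB4-low library lay below every library of the other groups, and in these shares the lung-recovered range overlapped the ITGB4-high one. In summed CPM it did not, with 8143 to 8322 in lung-recovered against 8442 and 8690 in ITGB4-high libraries. In summed CPM the means were 8211 ± 96.9 in lung-recovered (SD, n = 3), 7606 ± 144 in ITGB4-low (n = 3) and 8566 ± 175 in ITGB4-high libraries (n = 2). Complex IV followed this order, with 1350 ± 14.8 CPM in lung-recovered, 1253 ± 56.1 CPM in ITGB4-low and 1555 ± 53.7 CPM in ITGB4-high libraries. Complex II did not, with 454 ± 7.94 CPM in lung-recovered, 410 ± 2 CPM in ITGB4-low and 384 ± 10.6 CPM in ITGB4-high libraries. These sums are descriptions and were not tested. In bulk RNA, fewer cells with a transcript and less of it per cell cannot be told apart.

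**Figure D1:**
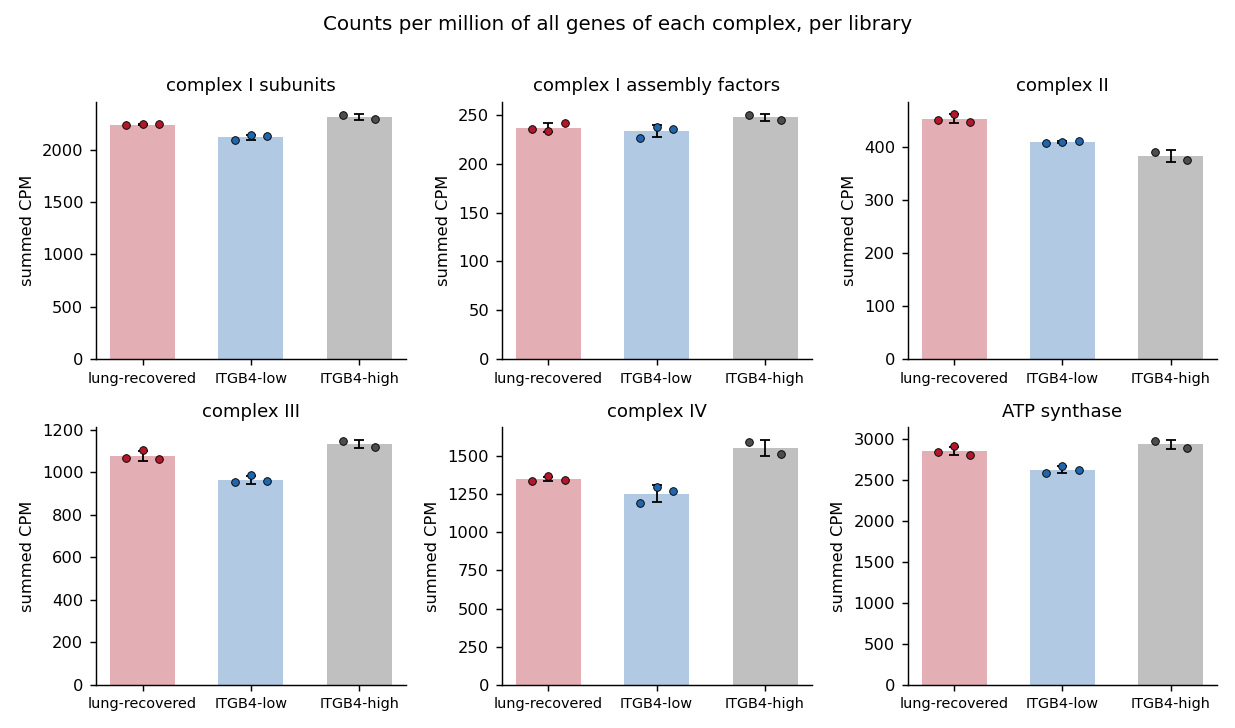
Summed CPM (vertical axes, from 0) of all genes of each complex in lung-recovered (red, 3 libraries), ITGB4-low (blue, 3) and ITGB4-high (grey, 2) libraries. Points are libraries, bars are group means and whiskers are SDs. Complex IV averaged 1350 CPM in lung-recovered, 1253 CPM in ITGB4-low and 1555 CPM in ITGB4-high libraries, while complex II averaged 454, 410 and 384 CPM in the same order of groups.

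The comparison of the ITGB4-low clone with ITGB4-high cells, both in dishes, asks how the 2 states differ before any lung passage. Most respiratory chain genes that passed the test were lower in the clone, by small amounts. Of the 91 tested members, 44 were called lower (background 27.6% of all genes tested) and 6 were called higher (background 28.6%), at a Benjamini-Hochberg adjusted p under 0.05 in edgeR's quasi-likelihood test over all genes. As shares these were 48.4% lower and 6.59% higher, and 41 members did not pass. The median log2 fold change of the members was -0.16, which is a 0.895-fold level, and that of all genes was 0. No member passed with a change of 2-fold or more, whereas 9.12% of all genes were at least 2-fold higher and 3.95% at least 2-fold lower. For 65 of 91 members (71.4%) every library of one group lay on the same side of the other group, against 68.7% of all genes. Called in either direction were 56.2% of all genes. Among other genes of at least 10 CPM on average, a class that holds 87 of the tested members, 34.9% were lower and 29.7% higher, with a median of -0.03.

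The lower calls were spread over complexes III, IV and V (ATP synthase) and the accessory part of complex I. Complex IV had 9 of 11 tested genes lower and 0 higher, with a median of -0.29. ATP synthase had 11 of 19 lower and 0 higher (median -0.15), and complex III had 5 of 10 lower and 0 higher (median -0.18). At an unadjusted p under 0.05 in edgeR, 1 complex IV gene, 1 ATP synthase gene and 0 complex III genes were higher, and DESeq2 called 0 higher in each. Complex I subunits had 15 of 39 lower and 3 higher (median -0.07). Of these, the 7 core subunits, which carry the flavin, the iron-sulphur clusters and the coenzyme Q site, had 1 lower and 2 higher (median -0.01), and the 32 tested accessory subunits had 14 lower and 1 higher (median -0.14). Complex II had 1 lower and 1 higher of 4, and the assembly factors had 3 lower and 2 higher of 8. As shares, the lower calls were 81.8% for complex IV, 57.9% for ATP synthase, 50% for complex III and 25% for complex II. They were 38.5% for complex I subunits and 37.5% for assembly factors, near the 34.9% of other genes of at least 10 CPM. For the accessory subunits of complex I the share was 43.8%. Whether these shares differ between complexes was not tested.

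The comparison of the lung-recovered cells with the dish-grown ITGB4-low clone they came from asks what differs in the same clone after the lung. Here the members that passed were nearly all higher. Of the 91 tested members, 27 were called higher (background 14.7%) and 1 was called lower (background 15.4%), and 63 did not pass. The median log2 fold change was 0.08, a 1.06-fold level, against 0 for all genes, of which 30.1% were called in either direction. No called member reached 2-fold, while 3.2% of all genes were at least 2-fold higher and 2.31% at least 2-fold lower. Libraries did not overlap for 45 of 91 members (49.5%), against 43.3% of all genes. The higher and lower calls were 29.7 and 1.1% of the members, against 16.7 and 17.9% of other genes of at least 10 CPM on average. ATP synthase had 8 of 19 higher, complex IV 5 of 11, complex III 4 of 10, complex II 3 of 4, complex I subunits 6 of 39 and assembly factors 1 of 8. The single lower call was NDUFAF3, an assembly factor that joins early complex I modules. It had 54.6, 53.9 and 58.6 CPM in lung-recovered libraries, 62.3, 66.5 and 64.1 CPM in ITGB4-low libraries, and 64.5 and 58.9 CPM in ITGB4-high libraries. The lung-recovered libraries lay below all ITGB4-low libraries, with a log2 fold change of -0.21 ± 0.05 (SE, adjusted p = 0.00554, edgeR).

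Against ITGB4-high cells, the lung-recovered cells had 14 of 91 members called higher (background 26.2%) and 30 called lower (background 25%), with 47 that did not pass. The median log2 fold change was -0.06, a 0.959-fold level, against 0.01 for all genes, of which 51.2% were called in either direction. Again no called member reached 2-fold, while 8.08% of all genes were at least 2-fold higher and 2.5% at least 2-fold lower. Libraries did not overlap for 62 members (68.1%), against 66.8% of all genes. The higher and lower calls were 15.4 and 33% of the members, against 27.4 and 32.3% of other genes of at least 10 CPM on average. The members' lower share was thus near that of genes of like level, and their higher share was below it. Complex IV had 8 of 11 lower and 1 higher, ATP synthase 5 of 19 lower and 2 higher, complex III 3 of 10 lower and 1 higher, and complex I subunits 11 of 39 lower and 6 higher. Complex II had 0 lower and 2 of 4 higher. Since each pair of comparisons shares a group of libraries, the 3 fold changes of a gene are not independent, and they are given below side by side.

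**Figure D2:**
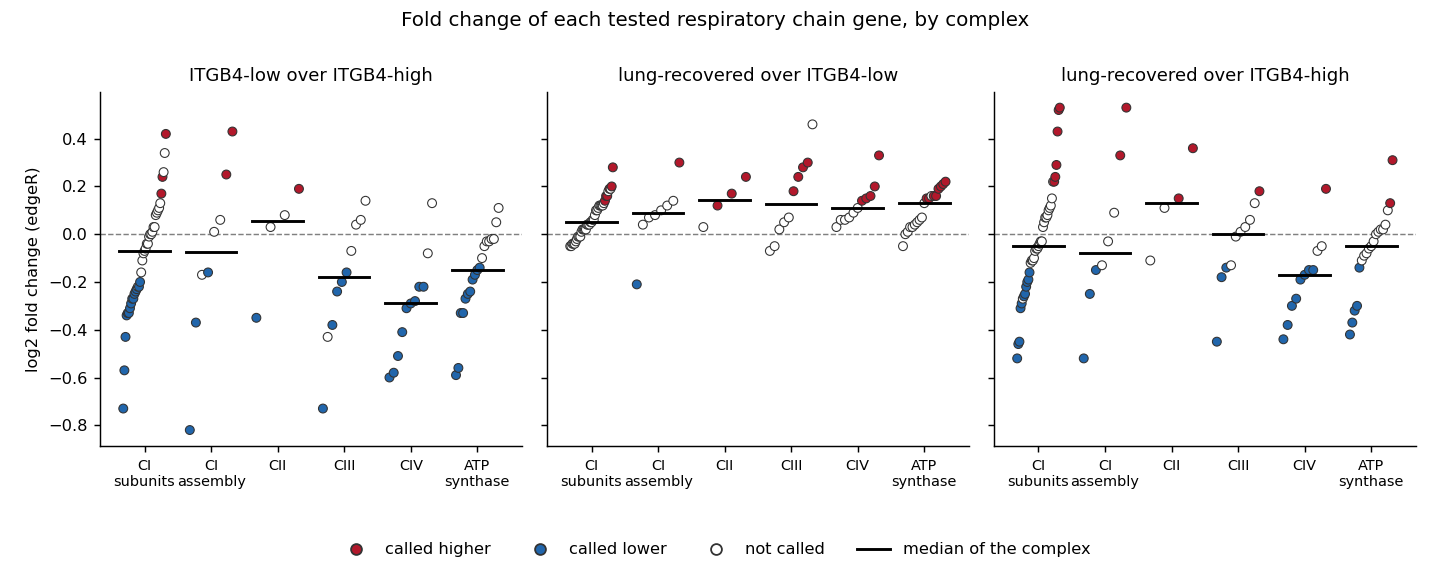
The log2 fold change (vertical axis, edgeR) of each of the 91 tested members, grouped by complex (CI to CIV are complexes I to IV), in the 3 comparisons. Points are genes, red where called higher, blue where called lower and white where not called, and black lines are medians. In ITGB4-low over ITGB4-high cells 44 points are blue and 6 red, and in lung-recovered over ITGB4-low cells 27 are red and 1 is blue.

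Complex I, the NADH dehydrogenase, held members at both ends of the range. NDUFB5, an accessory subunit of the membrane arm, had 82.3, 84.7 and 81.9 CPM in lung-recovered libraries, 65, 67.6 and 71.7 CPM in ITGB4-low libraries, and 113 and 114 CPM in ITGB4-high libraries. The 3 groups did not overlap, and the lung-recovered libraries lay between the dish-grown ones. Its log2 fold change was -0.73 ± 0.05 in ITGB4-low over ITGB4-high cells (adjusted p = 2.65e-10), 0.28 ± 0.05 in lung-recovered over ITGB4-low cells (adjusted p = 0.000103) and -0.45 ± 0.05 in lung-recovered over ITGB4-high cells (adjusted p = 3.45e-07). NDUFA2, an accessory subunit with a thioredoxin-like fold, had 22.3, 22.6 and 23.8 CPM in lung-recovered, 22.2, 22.3 and 22 CPM in ITGB4-low, and 33.1 and 32.7 CPM in ITGB4-high libraries. Both groups of clone 1 cells lay below ITGB4-high cells, at -0.57 ± 0.07 for ITGB4-low (adjusted p = 4.11e-07) and -0.52 ± 0.06 for lung-recovered cells (adjusted p = 1.45e-06). Between the clone 1 groups NDUFA2 did not pass, at 0.05 ± 0.06 (adjusted p = 0.626). NDUFB4, a membrane-arm accessory subunit, showed the same pattern, with -0.43 ± 0.05 in ITGB4-low (adjusted p = 5.42e-07) and -0.46 ± 0.05 in lung-recovered cells (adjusted p = 3.22e-07), both over ITGB4-high cells. NDUFA4, now assigned to complex IV, is counted by its symbol with the accessory subunits of complex I in every tally, median and sum here, and not with complex IV. It had means of 155 CPM in lung-recovered, 153 CPM in ITGB4-low and 192 CPM in ITGB4-high libraries, and was lower in ITGB4-low than in ITGB4-high cells by -0.33 ± 0.05 (adjusted p = 6.52e-06).

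NDUFS1 and NDUFA10 were among the complex I subunits called higher in the clone than in ITGB4-high cells. NDUFS1, the largest core subunit, which holds several of the iron-sulphur clusters, had 135, 137 and 125 CPM in lung-recovered, 127, 122 and 122 CPM in ITGB4-low, and 90.5 and 94.6 CPM in ITGB4-high libraries. Its clone 1 groups overlapped each other and both lay above ITGB4-high cells. The log2 fold change was 0.42 ± 0.05 in ITGB4-low (adjusted p = 9.74e-07) and 0.52 ± 0.05 in lung-recovered cells (adjusted p = 7.66e-08), both over ITGB4-high cells. NDUFA10, an accessory subunit, had 82.7, 81 and 85.7 CPM in lung-recovered, 74.6, 76.8 and 78.5 CPM in ITGB4-low, and 66.9 and 69.6 CPM in ITGB4-high libraries. The groups did not overlap. It was higher in ITGB4-low than in ITGB4-high cells by 0.17 ± 0.05 (adjusted p = 0.00908), and without replicate 1 of the ITGB4-high cells it did not pass (0.13, adjusted p = 0.0965). NDUFV1, the core subunit that binds NADH, had 155, 153 and 157 CPM in lung-recovered, 136, 145 and 142 CPM in ITGB4-low, and 142 and 147 CPM in ITGB4-high libraries. It was higher in lung-recovered than in ITGB4-low cells by 0.14 ± 0.04 (adjusted p = 0.0181), a call that ended when any of 3 libraries was left out (adjusted p = 0.0508 without replicate 3 of the ITGB4-low cells, and 0.0574 and 0.0839 without replicates 1 and 3 of the lung-recovered cells).

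**Figure D3:**
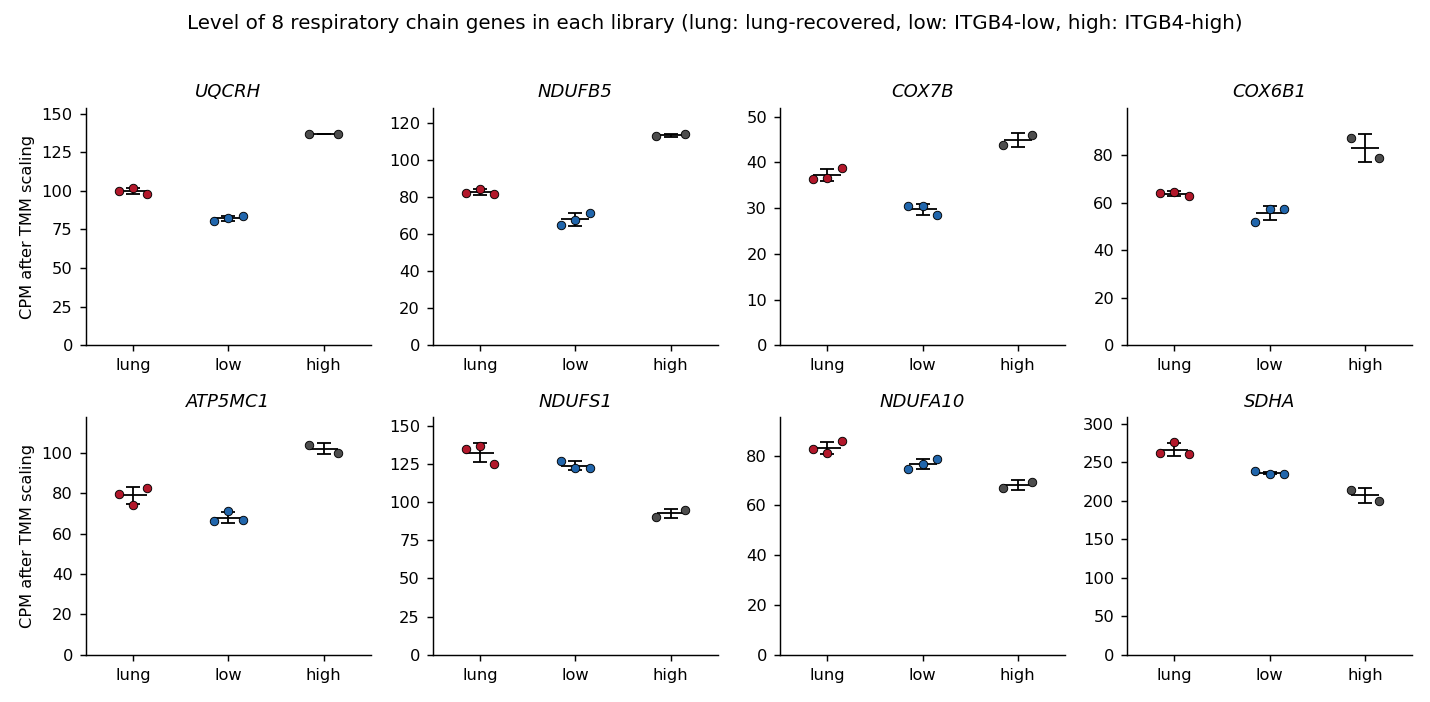
Level in CPM after TMM scaling (vertical axes, from 0) of 8 members in lung-recovered (red), ITGB4-low (blue) and ITGB4-high (grey) libraries. Points are libraries, and bars with whiskers are group means and SDs. UQCRH, NDUFB5, COX7B, COX6B1 and ATP5MC1 are lowest in ITGB4-low and highest in ITGB4-high libraries, whereas NDUFS1, NDUFA10 and SDHA are lowest in ITGB4-high libraries.

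The complex I assembly factors also diverged. NDUFAF6, needed to make the mitochondrially encoded ND1 subunit, had 15.8, 14.2 and 14.5 CPM in lung-recovered, 10.6, 13.1 and 12.3 CPM in ITGB4-low, and 22 and 20.3 CPM in ITGB4-high libraries. The groups did not overlap, and the log2 fold change of -0.82 ± 0.09 in ITGB4-low over ITGB4-high cells (adjusted p = 3.29e-07) was the lowest of any tested member in that comparison. In lung-recovered over ITGB4-low cells it was 0.30 ± 0.09 (adjusted p = 0.0141), a call that ended without replicate 1 of the ITGB4-low cells (0.0669) or replicate 1 of the lung-recovered cells (0.0781). NDUFAF7, a mitochondrial methyltransferase, had 16.1, 15.2 and 17.9 CPM in lung-recovered, 15.1, 15.1 and 15.7 CPM in ITGB4-low, and 10.3 and 12.5 CPM in ITGB4-high libraries. It was higher over ITGB4-high cells by 0.43 ± 0.10 in ITGB4-low (adjusted p = 0.00125) and by 0.53 ± 0.10 in lung-recovered cells (adjusted p = 0.000162), the highest value among the members called in each of those comparisons, level with NDUFV2 in the second. NDUFV2 had 3.49, 4.26 and 4.06 CPM in lung-recovered and 2.38 and 3.08 CPM in ITGB4-high libraries (0.53 ± 0.18, adjusted p = 0.0195), with the uncertainty of its counting given above. That call ended without replicate 1 of the ITGB4-high cells (0.215), without replicates 2 (0.0584) or 3 (0.0559) of the lung-recovered cells and in DESeq2 (0.0804). NDUFAF1, a factor of the membrane arm, was higher in ITGB4-low than in ITGB4-high cells by 0.25 ± 0.10 (adjusted p = 0.0386), and its call ended without replicate 1 of the ITGB4-high cells (0.0584), without replicate 2 of the ITGB4-high cells (0.237), without replicate 2 of the ITGB4-low cells (0.167) and in DESeq2 (0.115).

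Within complex II the 4 subunits did not move together. SDHA, the flavoprotein that oxidises succinate, had 262, 276 and 261 CPM in lung-recovered, 238, 235 and 235 CPM in ITGB4-low, and 214 and 200 CPM in ITGB4-high libraries. The 3 groups did not overlap, and SDHA rose by 0.19 ± 0.05 in ITGB4-low over ITGB4-high cells (adjusted p = 0.00177) and by 0.17 ± 0.04 in lung-recovered over ITGB4-low cells (adjusted p = 0.00351). SDHD, one of the membrane anchors, had 36.5, 34.2 and 33.5 CPM in lung-recovered, 29.8, 28.5 and 29.9 CPM in ITGB4-low, and 38.8 and 36.2 CPM in ITGB4-high libraries. Only the ITGB4-low libraries stood apart, with -0.35 ± 0.06 over ITGB4-high cells (adjusted p = 0.000114) and a lung-recovered level 0.24 ± 0.06 above them (adjusted p = 0.00408). SDHB, the iron-sulphur subunit, had 91.7, 92.3 and 90.6 CPM in lung-recovered, 83, 84.4 and 85.4 CPM in ITGB4-low, and 82.3 and 82.7 CPM in ITGB4-high libraries. It was higher in lung-recovered cells by 0.12 ± 0.04 over ITGB4-low (adjusted p = 0.0399) and by 0.15 ± 0.05 over ITGB4-high cells (adjusted p = 0.0119). The first of these calls ended when any one of the 6 libraries compared was left out (adjusted p from 0.0713 to 0.107), in DESeq2 (0.0841), with upper-quartile scaling (0.0634), with no low-count filter (0.107) and with an offset for exonic length (0.0551), and the second without replicate 1 of the ITGB4-high cells (0.0603). SDHC, the other membrane anchor, had means of 61.7, 60.4 and 57 CPM in lung-recovered, ITGB4-low and ITGB4-high libraries and passed in no comparison (adjusted p from 0.0843 to 0.694). SDHA has pseudogenes whose reads may be shared with it, and they took more than 1% of its own counts.

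Complex III genes ranged from the hinge protein UQCRH to the Rieske iron-sulphur protein UQCRFS1. UQCRH, which sits where cytochrome c docks, had 100, 102 and 98.1 CPM in lung-recovered, 80.4, 82.6 and 83.8 CPM in ITGB4-low, and 137 and 137 CPM in ITGB4-high libraries. The groups were far apart relative to their spread. Its log2 fold change was -0.73 ± 0.05 in ITGB4-low over ITGB4-high cells (adjusted p = 6.26e-11), 0.28 ± 0.04 in lung-recovered over ITGB4-low cells (adjusted p = 3.58e-05) and -0.45 ± 0.05 in lung-recovered over ITGB4-high cells (adjusted p = 9.38e-08). UQCRHL, a near-identical copy, had 0.611 CPM on average and passed in no comparison. UQCRC2, a core structural subunit, had 187, 195 and 185 CPM in lung-recovered, 148, 161 and 151 CPM in ITGB4-low, and 181 and 182 CPM in ITGB4-high libraries. The lung-recovered libraries lay above both other groups, by 0.30 ± 0.04 over ITGB4-low cells (adjusted p = 1.83e-05), while the 0.06 ± 0.05 over ITGB4-high cells did not pass (adjusted p = 0.311). UQCRC1, its partner, had the same order of groups, with -0.16 ± 0.05 in ITGB4-low over ITGB4-high cells (adjusted p = 0.00523, and 0.0552 without replicate 1 of the ITGB4-high cells) and 0.18 ± 0.04 in lung-recovered over ITGB4-low cells (adjusted p = 0.00295). CYC1, cytochrome c1, averaged 216 ± 8.91 CPM in lung-recovered, 182 ± 6.02 CPM in ITGB4-low and 238 ± 11.9 CPM in ITGB4-high libraries (SD, n = 3, 3 and 2). It fell by -0.38 ± 0.05 in ITGB4-low over ITGB4-high cells (adjusted p = 2.09e-06) and rose by 0.24 ± 0.05 in lung-recovered over ITGB4-low cells (adjusted p = 0.000345). UQCRFS1, with 84.3, 81.5 and 74.1 CPM on average in lung-recovered, ITGB4-low and ITGB4-high libraries, was higher in lung-recovered than in ITGB4-high cells by 0.18 ± 0.07 (adjusted p = 0.0273), a call that ended without replicate 2 of the ITGB4-high cells (0.23), without replicate 2 of the lung-recovered cells (0.152) and in DESeq2 (0.0562).

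Complex IV, cytochrome c oxidase, had the largest share of lower calls among the complexes in ITGB4-low over ITGB4-high cells, at 81.8%. COX7B, a small subunit needed for assembly, had 36.3, 36.5 and 38.7 CPM in lung-recovered, 30.4, 30.4 and 28.4 CPM in ITGB4-low, and 43.8 and 45.9 CPM in ITGB4-high libraries. The groups did not overlap, and the lung-recovered libraries lay between the others. Its log2 fold change was -0.60 ± 0.06 in ITGB4-low over ITGB4-high cells (adjusted p = 9.11e-08) and 0.33 ± 0.06 in lung-recovered over ITGB4-low cells (adjusted p = 0.000181), the highest among the called members there. COX6B1, which bridges the monomers of the complex IV dimer, had 64, 64.5 and 62.6 CPM in lung-recovered, 52, 57.1 and 57.3 CPM in ITGB4-low, and 87.2 and 78.9 CPM in ITGB4-high libraries. It had the same order of groups, with -0.58 ± 0.06 in ITGB4-low over ITGB4-high cells (adjusted p = 4.64e-08) and 0.20 ± 0.05 in lung-recovered over ITGB4-low cells (adjusted p = 0.00737). COX7C, a small subunit, had 144, 152 and 150 CPM in lung-recovered, 130, 148 and 147 CPM in ITGB4-low, and 196 and 207 CPM in ITGB4-high libraries. Here the clone 1 groups overlapped, and each lay below ITGB4-high cells, by -0.51 ± 0.05 for ITGB4-low (adjusted p = 1.63e-07) and by -0.44 ± 0.05 for lung-recovered cells (adjusted p = 1.35e-06). COX4I1 averaged 286 ± 2.86 CPM in lung-recovered, 266 ± 13.2 CPM in ITGB4-low and 352 ± 24.7 CPM in ITGB4-high libraries, with -0.41 ± 0.05 in ITGB4-low over ITGB4-high cells (adjusted p = 1.37e-06). COX5A, which binds COX4I1, was lower by -0.31 ± 0.05 (adjusted p = 2.52e-05), COX7A2 by -0.29 ± 0.05 (adjusted p = 0.000115), COX8A by -0.28 ± 0.05 (adjusted p = 0.000155) and COX6A1 by -0.22 ± 0.06 (adjusted p = 0.00264) in the same comparison. The call on COX6A1 ended without replicate 1 of the ITGB4-high cells (0.0559). The exceptions were COX5B, a zinc-binding subunit, at 0.13 ± 0.06 (adjusted p = 0.0651), and COX7A2L, a protein of supercomplexes that is related to COX7A2, at -0.08 ± 0.05 (adjusted p = 0.167).

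Among the ATP synthase genes, the alpha subunit and a gene of the rotating ring were lower in the clone than in ITGB4-high cells, while the beta subunit was not called. ATP5MC1, one of 3 genes for the c subunit of the rotating ring, had 79.7, 74.2 and 82.8 CPM in lung-recovered, 66.2, 71 and 66.7 CPM in ITGB4-low, and 104 and 100 CPM in ITGB4-high libraries. The groups did not overlap, with -0.59 ± 0.05 in ITGB4-low over ITGB4-high cells (adjusted p = 1.99e-08) and 0.22 ± 0.05 in lung-recovered over ITGB4-low cells (adjusted p = 0.00273). The c subunit genes differed among themselves, although they encode the same mature protein. ATP5MC2 averaged 197 CPM in lung-recovered, 195 CPM in ITGB4-low and 246 CPM in ITGB4-high libraries, with -0.33 ± 0.05 in ITGB4-low over ITGB4-high cells (adjusted p = 8.75e-06), and ATP5MC3, at 113, 103 and 105 CPM in the same order of groups, did not pass there (-0.03 ± 0.06, adjusted p = 0.664). ATP5F1A, the alpha subunit, had 228, 244 and 228 CPM in lung-recovered, 213, 214 and 204 CPM in ITGB4-low, and 323 and 299 CPM in ITGB4-high libraries. It was lower in ITGB4-low than in ITGB4-high cells by -0.56 ± 0.05 (adjusted p = 6.8e-09), and 0.15 ± 0.04 higher in lung-recovered than in ITGB4-low cells (adjusted p = 0.0153), a call that ended without replicate 3 of the ITGB4-low cells (0.0862) or replicate 2 of the lung-recovered cells (0.0794). ATP5F1B, the beta subunit that pairs with it in the catalytic head, had 998, 1053 and 972 CPM in lung-recovered, 879, 917 and 912 CPM in ITGB4-low, and 947 and 898 CPM in ITGB4-high libraries. Its dish-grown groups overlapped (-0.03 ± 0.05, adjusted p = 0.6), and it was 0.16 ± 0.04 higher in lung-recovered than in ITGB4-low cells (adjusted p = 0.00808). ATP5MG, a subunit of the membrane part, was 0.20 ± 0.04 higher in lung-recovered than in ITGB4-low cells (adjusted p = 0.00177) and 0.31 ± 0.05 higher than in ITGB4-high cells (adjusted p = 2.82e-05). ATP5IF1, the inhibitor that stops ATP synthase from running backwards, averaged 55.7, 57.6 and 55.5 CPM in lung-recovered, ITGB4-low and ITGB4-high libraries and passed in no comparison (adjusted p from 0.413 to 0.951).

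Promoters of respiratory chain genes are known for sites of NRF1, of the ETS factor GABPA (also called NRF2) and of YY1. They are shown here for some members that were lower in the clone and for 1 that was higher. Each printed promoter holds a marked site, so these genes are examples and not a sample of the members. RefSeq promoters (GRCh38.p14, 250 bases before to 50 after the first start listed per gene) matched 78 of the 100 members by symbol, of which 73 were tested. Both strands were searched, and a match is a description of letters, not of a bound site. The ETS core CCGGAAG was found in 21 of 73 members (28.8%), against 10.7% of all 27305 genes with a promoter and 14.2% of protein-coding ones. The full palindromic NRF1 site was in 5 (6.85%, against 1.36% and 1.75%), and its shorter core TGCGCA, which can overlap the full site, in 21 (28.8%, against 8.42% and 10.8%). The extended YY1 core was in 7 (9.59%, against 1.28% and 1.93%). Among members called lower in ITGB4-low over ITGB4-high cells 12 of 35 promoters held the ETS core, against 1 of 5 among those called higher and 8 of 33 among those not called, and the difference was not tested. The 250 bases upstream of the start are printed 5′ to 3′ on the gene's own strand, with ETS cores (CTTCCGG where read on the other strand) and full NRF1 sites in capitals. UQCRH, COX6B1, SDHD and NDUFB4 were lower in the clone and NDUFS1 was higher.
UQCRH (chr1:46303448-46303697, plus strand): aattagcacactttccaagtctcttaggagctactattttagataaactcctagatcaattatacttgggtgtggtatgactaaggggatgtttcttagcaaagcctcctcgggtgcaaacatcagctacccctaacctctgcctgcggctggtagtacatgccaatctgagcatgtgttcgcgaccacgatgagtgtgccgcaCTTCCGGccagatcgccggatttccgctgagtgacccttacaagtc
COX6B1 (chr19:35648073-35648322, plus strand): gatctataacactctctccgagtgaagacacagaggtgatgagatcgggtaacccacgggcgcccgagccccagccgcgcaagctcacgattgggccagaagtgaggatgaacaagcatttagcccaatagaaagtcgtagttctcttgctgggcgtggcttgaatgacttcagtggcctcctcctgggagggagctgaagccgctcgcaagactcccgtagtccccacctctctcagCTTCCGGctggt
SDHD (chr11:112086623-112086872, plus strand): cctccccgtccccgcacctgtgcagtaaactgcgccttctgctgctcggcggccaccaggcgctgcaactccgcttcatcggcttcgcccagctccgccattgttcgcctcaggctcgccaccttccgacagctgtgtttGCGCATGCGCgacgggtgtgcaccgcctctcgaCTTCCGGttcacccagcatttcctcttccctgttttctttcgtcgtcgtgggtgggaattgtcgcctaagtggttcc
NDUFB4 (chr3:120596086-120596335, plus strand): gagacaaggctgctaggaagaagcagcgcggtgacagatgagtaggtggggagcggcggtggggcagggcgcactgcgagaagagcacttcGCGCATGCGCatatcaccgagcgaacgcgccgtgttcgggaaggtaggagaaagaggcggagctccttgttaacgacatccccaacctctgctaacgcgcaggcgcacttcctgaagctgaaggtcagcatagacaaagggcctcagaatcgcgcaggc
NDUFS1 (chr2:206159445-206159694, minus strand): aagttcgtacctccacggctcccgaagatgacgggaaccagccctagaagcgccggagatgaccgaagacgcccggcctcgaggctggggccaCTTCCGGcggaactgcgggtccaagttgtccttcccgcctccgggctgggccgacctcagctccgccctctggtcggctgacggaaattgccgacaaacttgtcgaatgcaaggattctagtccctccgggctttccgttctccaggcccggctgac

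UQCRH, COX6B1, SDHD and NDUFS1 each hold the ETS core within these 250 bases, so this motif was present in genes called in either direction. Among those called higher, NDUFS1 is the 1 of 5 matched genes that holds it. SDHD holds a full NRF1 site and an ETS core, and NDUFB4 a full NRF1 site only. NRF1 itself had 19.3, 18.3 and 17.2 CPM in lung-recovered, 19.9, 17.4 and 19.4 CPM in ITGB4-low, and 26.1 and 23.4 CPM in ITGB4-high libraries, and was lower in ITGB4-low than in ITGB4-high cells by -0.39 ± 0.08 (adjusted p = 0.000526). GABPA, by contrast, averaged 32.6, 34.2 and 28 CPM in the same order of groups and was 0.29 ± 0.08 higher in ITGB4-low than in ITGB4-high cells (adjusted p = 0.00354). GABPB1, among the regulators counted below, was lower in the same comparison (-0.17 ± 0.06, adjusted p = 0.0295). YY1 was also lower there (-0.18 ± 0.04, adjusted p = 0.00146).

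The members lie on 22 chromosomes, and some sit in regions where the clone's transcripts as a whole differ from those of ITGB4-high cells. Beside each member the median log2 fold change of the other tested genes within 5 Mb was therefore taken. For ATP5F1A on chromosome 18 this neighbourhood median was -0.57 in ITGB4-low over ITGB4-high cells, close to its own -0.56. SDHD on chromosome 11 (own -0.35, neighbours -0.36) and NDUFB4 on chromosome 3 (own -0.43, neighbours -0.37) were likewise near their neighbours, and NDUFB5 on chromosome 3 (own -0.73, neighbours -0.40) was below them. NDUFS1 and NDUFAF7 on chromosome 2 had neighbours at 0.28 and 0.29, and ATP5MG on chromosome 11 had neighbours at 0.60, above its own 0.11. For UQCRH (neighbours 0), NDUFAF6 (0.08), COX6B1 (-0.04), NDUFA2 (0.07) and SDHA (-0.01) the neighbourhood median was near 0. In all, 15 of 91 members had a neighbourhood median beyond 0.2 in either direction in this comparison, 12 did in lung-recovered over ITGB4-high cells, and 0 did in lung-recovered over ITGB4-low cells. Members lay below their neighbours in 54 of 91 cases in ITGB4-low over ITGB4-high cells, with a median difference of -0.08, and above them in 69 of 91 cases in lung-recovered over ITGB4-low cells, with a median difference of 0.08.

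**Figure D4:**
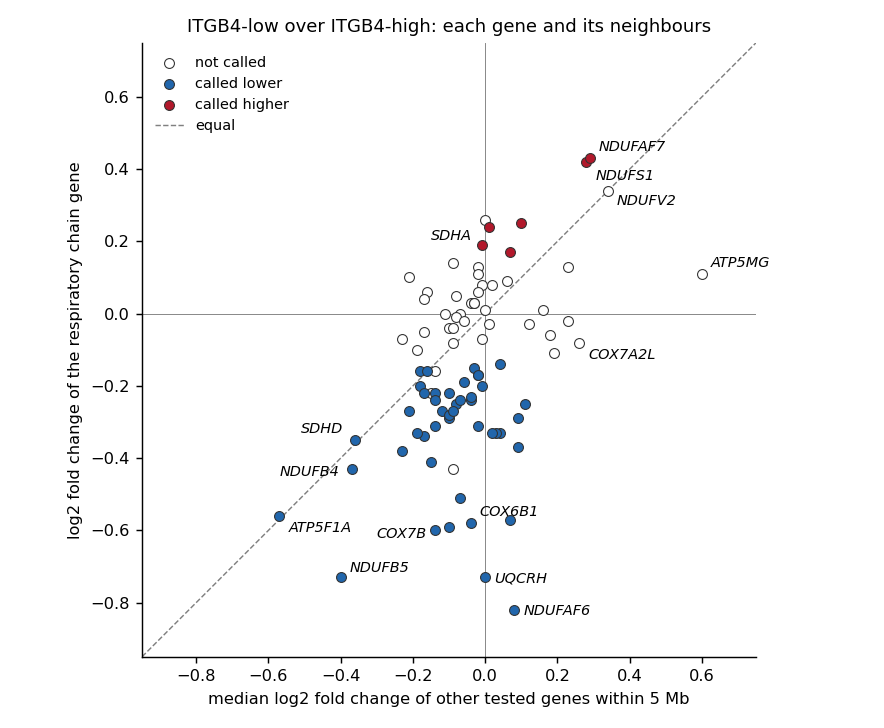
Log2 fold change of each tested member in ITGB4-low over ITGB4-high cells (vertical axis) against the median log2 fold change of other tested genes within 5 Mb (horizontal axis). Points are genes, red where called higher, blue where called lower and white where not called, and the dashed line marks equal values. ATP5F1A, SDHD and NDUFB4 lie on or near the line, while UQCRH, NDUFAF6 and COX6B1 lie far below it at a neighbourhood median near 0.

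The subunits that mitochondrial DNA encodes are set beside the nuclear ones, and the difference between the lists was not tested. Of these 13 genes, 3 were called higher and 0 lower in ITGB4-low over ITGB4-high cells, 0 and 0 in lung-recovered over ITGB4-low cells, and 5 and 0 in lung-recovered over ITGB4-high cells. The higher calls were 23.1, 0 and 38.5% of the list, against 28.6, 14.7 and 26.2% of all genes. In lung-recovered over ITGB4-low cells 0 of the 13 also had an unadjusted p under 0.05 in edgeR, 0 passed in DESeq2, and the lowest adjusted p in edgeR was 0.147. DESeq2 called 2 higher and 1 lower in ITGB4-low over ITGB4-high cells, and 2 higher and 0 lower in lung-recovered over ITGB4-high cells. MT-ND5, a proton-pumping subunit of complex I, averaged 716 ± 80.6 CPM in lung-recovered, 721 ± 80.1 CPM in ITGB4-low and 455 ± 84.5 CPM in ITGB4-high libraries, 0.66 ± 0.10 higher in ITGB4-low than in ITGB4-high cells (adjusted p = 1.22e-05). Together these genes took 1.34 ± 0.147% of counts in lung-recovered, 1.26 ± 0.132% in ITGB4-low and 1.16 ± 0.201% in ITGB4-high libraries, a difference within the spread. Mitochondrial mRNAs carry short tails, so a poly(A) library need not count them in proportion to nuclear ones.

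Among 15 tested regulators of mitochondrial biogenesis, 9 were lower and 1 was higher in ITGB4-low over ITGB4-high cells, with a median of -0.25. That is 60% lower and 6.67% higher, against 27.6% and 28.6% of all genes. ESRRA, an orphan nuclear receptor that drives respiratory genes, had 110, 102 and 109 CPM in lung-recovered, 77.9, 83.7 and 83.8 CPM in ITGB4-low, and 147 and 157 CPM in ITGB4-high libraries. These groups did not overlap, with -0.89 ± 0.05 in ITGB4-low over ITGB4-high cells (adjusted p = 1.94e-11) and 0.39 ± 0.05 in lung-recovered over ITGB4-low cells (adjusted p = 3.26e-06). The coactivator PPARGC1B, a partner of ESRRA, averaged 15.3, 13.7 and 24.8 CPM in lung-recovered, ITGB4-low and ITGB4-high libraries (-0.85 ± 0.10 in ITGB4-low over ITGB4-high cells, adjusted p = 3.14e-07), and PPRC1, a related coactivator, 140, 140 and 187 CPM (-0.42 ± 0.05, adjusted p = 6.04e-07). PPARGC1A, the best-known coactivator of the family, averaged at most 0.627 CPM in any group and did not pass (adjusted p = 0.59). TFAM, which packages and transcribes mitochondrial DNA, did not pass either (-0.09 ± 0.05, adjusted p = 0.124). In lung-recovered over ITGB4-low cells 2 of the 15 (13.3%, against 14.7% of all genes) passed, both higher, ESRRA and the mitochondrial RNA polymerase POLRMT (0.21 ± 0.05, adjusted p = 0.00352), and over ITGB4-high cells 9 were lower and 2 higher (60% and 13.3%, against 25% and 26.2% of all genes).

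The enzymes that feed the chain were also counted, with no test against it. Of 19 genes of the TCA cycle and pyruvate dehydrogenase, 10 were higher and 4 lower in ITGB4-low over ITGB4-high cells, 9 higher and 0 lower in lung-recovered over ITGB4-low cells, and 12 higher and 1 lower in lung-recovered over ITGB4-high cells. The higher calls were 52.6, 47.4 and 63.2% of the list, against 28.6, 14.7 and 26.2% of all genes, and the lower calls 21.1, 0 and 5.26%, against 27.6, 15.4 and 25%. IDH2, the mitochondrial NADP-dependent isocitrate dehydrogenase, averaged 79.9 ± 5.12 CPM in lung-recovered, 82.1 ± 1.24 CPM in ITGB4-low and 48.9 ± 0.175 CPM in ITGB4-high libraries (0.75 ± 0.06 in ITGB4-low over ITGB4-high cells, adjusted p = 1.19e-09). PDHB, the beta subunit of the first pyruvate dehydrogenase enzyme, and DLD, the dehydrogenase shared by several mitochondrial complexes, were higher by 0.59 ± 0.06 (adjusted p = 1.2e-07) and 0.47 ± 0.05 (adjusted p = 3.32e-07), whereas PC, pyruvate carboxylase, was lower by -0.37 ± 0.08 (adjusted p = 0.000365). PDHA1, the alpha subunit of the same enzyme as PDHB, was also lower, by -0.29 ± 0.05 (adjusted p = 6.42e-05). It averaged 99.3 CPM in ITGB4-low and 122 CPM in ITGB4-high libraries, so the subunits of this enzyme differed in direction. Among the 6 kinases and phosphatases that switch pyruvate dehydrogenase off and on, 3 were higher and 2 lower in ITGB4-low over ITGB4-high cells. PDK4, a kinase that rises in fasting, was the lowest at -1.96 ± 0.29 (adjusted p = 9.06e-06), with only 1.29, 0.689 and 2.74 CPM on average in lung-recovered, ITGB4-low and ITGB4-high libraries. Of 18 tested genes of electron carriers and coenzyme Q synthesis, 5 were higher and 7 lower in ITGB4-low over ITGB4-high cells, 4 and 1 in lung-recovered over ITGB4-low cells, and 4 and 2 in lung-recovered over ITGB4-high cells. For this list the shares were 27.8% higher and 38.9% lower, 22.2% and 5.56%, and 22.2% and 11.1%. GPD2, the remaining gene of that list, had 38 counts over all libraries and was not tested.

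For some assembly factors outside the symbol rule, the values lay near those of their neighbourhood. Of 25 genes for complex IV assembly, 6 were higher and 4 lower in ITGB4-low over ITGB4-high cells (24% and 16%, below the 28.6% and 27.6% of all genes). SCO1, a copper chaperone of complex IV, averaged 73.9, 72.8 and 38.5 CPM in lung-recovered, ITGB4-low and ITGB4-high libraries (0.92 ± 0.06, adjusted p = 1.35e-10), and COX10, which makes its haem, 32.7, 31.7 and 18.1 CPM (0.81 ± 0.07, adjusted p = 9.74e-09). Both lie on chromosome 17 with neighbourhood medians of 0.78 and 0.81. TTC19 of complex III assembly (0.76 ± 0.05, neighbours 0.77) and ATPAF2 of ATP synthase assembly (0.84 ± 0.10, neighbours 0.77), also on chromosome 17, were like them. TIMMDC1, a complex I assembly factor on chromosome 3, was lower by -0.54 ± 0.05 (neighbours -0.36). In ITGB4-low over ITGB4-high cells the counts were 2 higher and 3 lower of 10 for other complex I assembly genes, 0 and 1 of 4 for complex II, 1 and 3 of 6 for complex III, 1 and 0 of 6 for ATP synthase, and 2 and 5 of 10 for modulators of supercomplexes and respiration. The shares of these lists, each of at most 10 genes, were 20 and 30%, 0 and 25%, 16.7 and 50%, 16.7 and 0%, and 20 and 50%. The lists overlap in part with the members and with each other. COX7A2L among the modulators and ATP5S (also DMAC2L) in the ATP synthase assembly list are members. TMEM70 is in the complex I and the ATP synthase assembly lists. In lung-recovered over ITGB4-low cells the counts were 1 and 0, 0 and 0, 1 and 0, 0 and 0, and 2 and 0 in the same order of lists, and 1 and 1 of 25 for complex IV assembly. As shares these were 10 and 0%, 0 and 0%, 16.7 and 0%, 0 and 0%, 20 and 0%, and 4 and 4%. Of all genes, 14.7 and 15.4% were called there. In lung-recovered over ITGB4-high cells the counts were 1 and 1, 0 and 0, 2 and 2, 1 and 0, and 3 and 3, and 6 and 4 for complex IV assembly. As shares these were 10 and 10%, 0 and 0%, 33.3 and 33.3%, 16.7 and 0%, 30 and 30%, and 24 and 16%. Of all genes, 26.2 and 25% were called in that comparison.

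Some wider gene groups were set beside the respiratory chain. The 79 tested genes of the cytosolic ribosome were lower in the clone in 75 cases and higher in 2 (ITGB4-low over ITGB4-high), with a median of -0.53, and higher in 30 and lower in 0 in lung-recovered over ITGB4-low cells, with a median of 0.12. Their share of counts was 6.7 ± 0.127% in lung-recovered, 6.15 ± 0.423% in ITGB4-low and 8.56 ± 0.012% in ITGB4-high libraries. The 78 genes of the mitochondrial ribosome, which translates the 13 mitochondrial proteins, had 18 higher and 14 lower in ITGB4-low over ITGB4-high cells, with a median of -0.01, and 13 higher and 2 lower in lung-recovered over ITGB4-low cells, with a median of 0.06. Of 31 genes of hypoxia and glycolysis, 21 were higher and 4 lower in ITGB4-low over ITGB4-high cells, and 3 were higher and 10 lower in lung-recovered over ITGB4-low cells. CA9, a carbonic anhydrase induced in low oxygen, averaged 15.8, 31 and 8.43 CPM in lung-recovered, ITGB4-low and ITGB4-high libraries, and BNIP3, a mitochondrial protein induced in low oxygen, 105, 149 and 61.3 CPM. In ITGB4-low over ITGB4-high cells the shares higher and lower were 2.53 and 94.9% for the cytosolic ribosome, 23.1 and 17.9% for the mitochondrial ribosome, and 67.7 and 12.9% for hypoxia and glycolysis, against 28.6 and 27.6% of all genes. In lung-recovered over ITGB4-low cells they were 38 and 0%, 16.7 and 2.56%, and 9.68 and 32.3%, against 14.7 and 15.4% of all genes. In lung-recovered over ITGB4-high cells 2 were higher and 73 lower for the cytosolic ribosome, 26 and 11 for the mitochondrial ribosome, and 18 and 4 for hypoxia and glycolysis, where 26.2 and 25% of all genes were called. BNIP3 was higher in ITGB4-low than in ITGB4-high cells by 1.28 ± 0.06 (adjusted p = 2.12e-13) and lower in lung-recovered than in ITGB4-low cells by -0.51 ± 0.05 (adjusted p = 5.76e-08). The list was not uniform. SLC16A3 and EGLN3 were higher in lung-recovered than in ITGB4-low cells, by 0.72 ± 0.05 (adjusted p = 1.78e-09) and 0.70 ± 0.08 (adjusted p = 1.56e-06). SLC16A3 was also lower in ITGB4-low than in ITGB4-high cells, by -0.46 ± 0.06 (adjusted p = 1.44e-06).

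**Figure D5:**
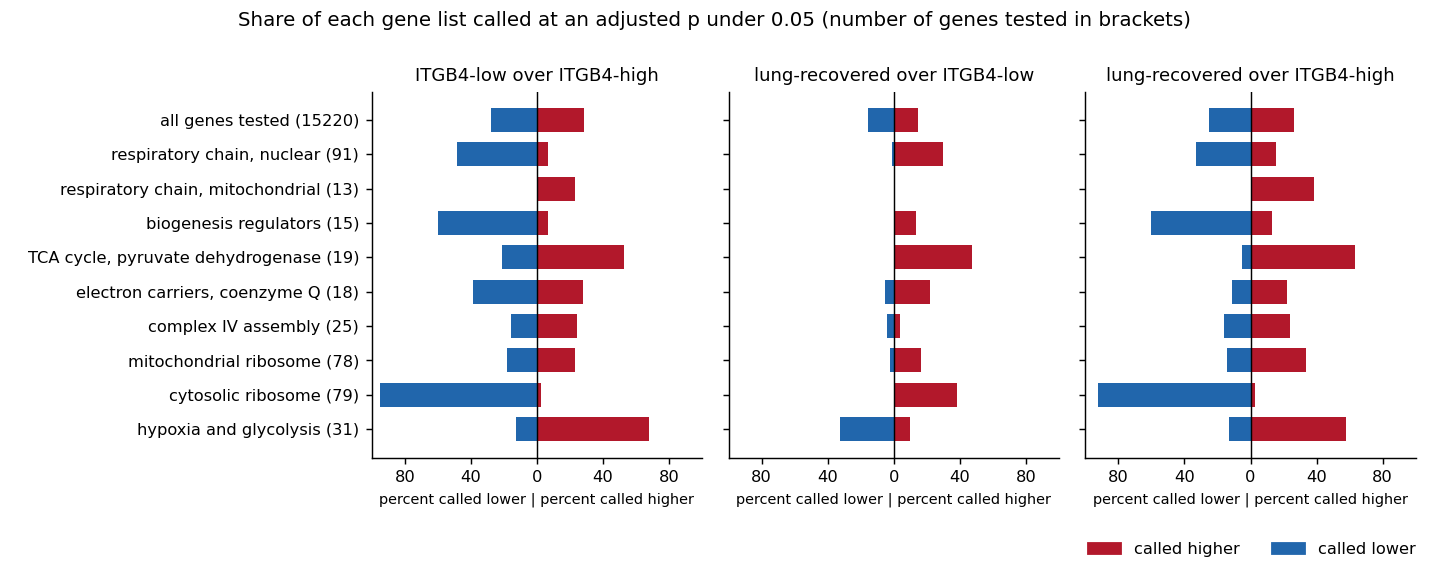
Percent of the tested genes of each list called higher (red, to the right) or lower (blue, to the left) at an adjusted p under 0.05 in the 3 comparisons. Numbers in brackets are genes tested. The nuclear respiratory chain genes had 48.4% lower and 6.59% higher in ITGB4-low over ITGB4-high cells, against 27.6% and 28.6% of all genes.

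Many members are short, with 49 of the 91 tested in the shortest of 4 equal bins of exonic length, and some share sequence with other genes. The median of all genes was between -0.01 and 0.01 in each of these bins in ITGB4-low over ITGB4-high cells, and the members' medians in those bins were -0.15, -0.14, -0.25 and -0.04 from the shortest to the longest. Of the tested members, 19 share at least 5% of their exonic bases with another gene on the same strand. Among the 72 that do not, 36 were lower and 6 higher in ITGB4-low over ITGB4-high cells, 22 higher and 1 lower in lung-recovered over ITGB4-low cells, and 26 lower and 11 higher in lung-recovered over ITGB4-high cells. As shares these were 50 and 8.33%, 30.6 and 1.39%, and 36.1 and 15.3%. The same shares of all genes were 27.6 and 28.6%, 14.7 and 15.4%, and 25 and 26.2%. In the last comparison 32.3% of other genes of at least 10 CPM were lower, near the 36.1% here.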

How the data were processed

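RNA was prepared as poly(A)-selected, strand-marked libraries, per the labels' protocols. The deposited table holds raw counts per gene, 1 column per library, not pooled. STAR 2.7.1a and build hg38 are named in the submitters' processing notes, and for the counting program, strand setting and filters the sources used here say nothing. Gene names came from a GENCODE annotation, which matched 58216 of 58336 gene IDs. Genes kept by filterByExpr (15220, 99.93% of counts) were fitted over all 8 libraries with edgeR 4.0.16 (R 4.3.3, TMM scaling, quasi-likelihood test, 5 residual degrees of freedom), and p-values were adjusted by Benjamini-Hochberg over all of them. An adjusted p under 0.05 is a call. Errors are SE for log2 fold changes and SD for levels, and p-values are two-sided. DESeq2 1.42.0, limma 3.58.1, other scalings, filters, a replicate block and leaving out each library were alternatives. On simulated counts with known changes, 44 of 70, 40 of 63 and 45 of 69 genes changed 1.25-fold (62.9, 63.5 and 65.2%) were recovered in ITGB4-low over ITGB4-high, lung-recovered over ITGB4-low and lung-recovered over ITGB4-high cells, in tables of 15220 genes. Of the calls in each simulation, 3.95, 5.91 and 4.35% were false. Few and only well-counted genes were changed there, with 1 spread for all genes. In the data 30.1 to 56.2% of genes were called, so these rates need not carry over. The members and gene lists were chosen with earlier results of these data known. Named members were set by a rule: a fixed list of subunits, and per comparison the 8 most raised and the 8 most lowered called members among those of at least 10 CPM in a group. NDUFV2, UQCRHL and COX5B were named after their values were seen. A further named member is not reported here.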

Additional observations from a re-analysis of the deposited data

How the results depend on the processing

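Counts of called members stayed within 1.5 times of those reported under every alternative run, and no named member reversed. DESeq2 called 5 members higher and 43 lower in ITGB4-low over ITGB4-high cells, 22 and 1 in lung-recovered over ITGB4-low cells, and 11 and 26 in lung-recovered over ITGB4-high cells. It called fewer genes in general, with 20.2% of all genes higher and 20.3% lower, 10.7 and 10.5%, and 19.2 and 18.4%. DESeq2 also called 3 complex IV genes higher in lung-recovered over ITGB4-low cells (5 in edgeR), 3 higher and 4 lower genes of electron carriers and coenzyme Q in ITGB4-low over ITGB4-high cells (5 and 7), and 2 higher mitochondrially encoded genes in lung-recovered over ITGB4-high cells (5). Leaving out 1 library at a time gave 4 to 8 higher and 37 to 44 lower, 18 to 30 higher and 1 to 1 lower, and 10 to 16 higher and 20 to 31 lower in the same order of comparisons. The count of 18 came without replicate 1 of the lung-recovered cells, and the counts of 4 and 20 without replicate 1 of the ITGB4-high cells. Without replicate 1 of the lung-recovered cells, 11.4% of all genes were called higher in lung-recovered over ITGB4-low cells. Same-numbered libraries did not deviate together (r from -0.157 to 0.043), so they share only a number. With a replicate block, 6 were higher and 43 lower, 23 and 1, and 12 and 24. The same shares of all genes were then 26.7 and 25.8%, 13.4 and 13.8%, and 24.5 and 22.9%. The block also left SDHB (lung-recovered over ITGB4-low, adjusted p = 0.0726) and NDUFV2 (lung-recovered over ITGB4-high, adjusted p = 0.053) above the threshold. Without mitochondrially encoded genes in the total, the members' share was 0.841% in lung-recovered and 0.853% in ITGB4-high libraries, and the denominator is smaller by construction. For single named members, 1886 combinations of gene, comparison and setting stayed on the same side of the threshold, 82 lost a call and 18 gained one. With 2 ITGB4-high libraries, small differences from that group rest on few values.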
